A study of Mus musculus with 12 samples.

Results

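The transcripts of 10 genes of the contractile machinery of skeletal muscle were followed through 12 libraries of whole mouse spinal cord. The members were fixed by name as Acta1, Ckm, Mylpf, Tnnt3, Tnni2, Tnnc2, Myh1, Myh4, Myh7 and Atp2a1, and all 10 were found among the 38924 genes of the deposited tables. The study compared heterozygous mice that carry the ETAQ deletion in Gars (ETAQ/+) with wild-type mice (WT) at 8 weeks of age on a B6J;FVB background. Gars encodes glycyl-tRNA synthetase, and dominant mutations in it cause an inherited neuropathy of peripheral nerves. The 6 ETAQ/+ mice were 3 females and 3 males, as were the 6 WT mice, and the titles number the animals from 1 to 12. Mice 1 to 6 were ETAQ/+ mouse 1 (female), ETAQ/+ mice 5 and 6 (males) and WT mice 2, 3 and 4 (males). Mice 7 to 12 were ETAQ/+ mice 8 and 9 (females), ETAQ/+ mouse 11 (male) and WT mice 7, 10 and 12 (females). All WT mice of the first set were thus male and all of the second female, so that among WT animals set and sex cannot be told apart. The labels name no batch, and the sets are a division of the mouse numbers only.

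A skeletal muscle fibre shortens when myosin heavy chains pull on filaments of actin, a step that calcium gates through the troponin complex. Fast and slow fibres use different genes for the same parts, and the heavy chain gene is the usual label of a fibre's type. Most of these transcripts are abundant in muscle and are not typical products of the neurons and glia of the cord. Acta1 (skeletal muscle alpha-actin) and Ckm (muscle creatine kinase, which regenerates ATP) are used by both fibre types. Mylpf (fast regulatory light chain), Tnnt3, Tnni2 and Tnnc2 (the fast forms of troponin T, I and C), Atp2a1 (the fast-fibre calcium pump of the sarcoplasmic reticulum), Myh4 (the heavy chain of IIb fibres) and Myh1 (the heavy chain of IIx fibres) mark fast fibres. Myh7 is the heavy chain of slow fibres and is also a heart gene.

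Library totals lay between 23595944 and 41452700 expected counts. A count of 0 allows up to 3 counts, which is 0.0724 to 0.127 CPM (counts scaled to a common library total) depending on the mouse. Such limits, like all counting intervals below, cover counting error only. The cord label was borne out in every mouse, since all 11 cord markers (neuronal, glial, motor neuron and axial position genes) were detected in all 12 libraries. Between the sets, Hoxc8 and Hoxc6 (axial position genes) passed with mice 1 to 6 higher and Syt1 (a synaptic protein) lower, and by genotype Chat (of motor neurons) was lower in ETAQ/+ mice, at -0.64 ± 0.05 (log2, edgeR adjusted p = 2.62e-06). Snap25 (also synaptic) was at 1770 to 2068 TPM in mice 1 to 6, and 1925 to 2077 TPM in mice 7 to 12. The ETAQ deletion lies inside the Gars coding sequence and is not visible in gene-level counts, so Gars does not check the genotype labels here. Its total count was higher in ETAQ/+ mice by 0.19 ± 0.03 (log2 fold change ± SE, edgeR adjusted p = 0.00408).

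Start regions are shown first for the actin of both fibre types, the IIb and IIx heavy chains and the slow heavy chain, whose levels differed in pattern. Each window runs from 250 bases before to 50 bases after a RefSeq transcription start (build GRCm38.p6), 5′ to 3′ on the gene's own strand. Capitals mark matches to the MEF2 consensus, the CArG box (the site of serum response factor) and the letters TATAAA. They are Acta1 on the minus strand (chr8:123894726-123895025), Myh4 and Myh1 on the plus strand (chr11:67237562-67237861 and chr11:67199852-67200151) and Myh7 on the minus strand (chr14:54994577-54994876).
Acta1: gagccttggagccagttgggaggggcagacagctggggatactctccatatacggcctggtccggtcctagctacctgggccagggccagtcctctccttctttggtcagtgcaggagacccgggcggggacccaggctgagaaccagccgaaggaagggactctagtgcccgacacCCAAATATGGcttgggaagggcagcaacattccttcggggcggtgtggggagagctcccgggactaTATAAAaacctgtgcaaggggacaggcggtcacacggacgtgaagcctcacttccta
Myh4: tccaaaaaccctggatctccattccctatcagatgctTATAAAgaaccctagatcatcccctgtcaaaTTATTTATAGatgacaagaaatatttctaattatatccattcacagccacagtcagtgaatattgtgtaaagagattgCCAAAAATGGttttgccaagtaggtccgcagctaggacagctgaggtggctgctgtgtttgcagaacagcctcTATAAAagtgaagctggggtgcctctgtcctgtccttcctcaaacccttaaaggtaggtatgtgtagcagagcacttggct
Myh1: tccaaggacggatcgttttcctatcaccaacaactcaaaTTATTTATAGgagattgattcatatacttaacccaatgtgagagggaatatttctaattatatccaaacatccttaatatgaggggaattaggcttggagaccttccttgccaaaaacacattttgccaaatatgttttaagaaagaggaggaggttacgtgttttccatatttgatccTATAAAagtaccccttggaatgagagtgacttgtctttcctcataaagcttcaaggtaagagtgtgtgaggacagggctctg
Myh7: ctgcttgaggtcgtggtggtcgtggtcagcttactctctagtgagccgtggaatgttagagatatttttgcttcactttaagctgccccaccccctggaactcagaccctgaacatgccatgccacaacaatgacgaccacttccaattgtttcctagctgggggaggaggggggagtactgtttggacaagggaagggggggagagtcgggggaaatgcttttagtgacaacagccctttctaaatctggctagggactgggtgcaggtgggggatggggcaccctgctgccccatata

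Windows were found for 8 of the 10 members, with 9 windows in all since Myh7 has a second start; Tnnt3 and Tnni2 had none in the table. Searched on both strands, the MEF2 consensus occurs in 3.19% of 32851 windows of all genes, the CArG box in 1.63%, TATAAA in 13.6% and the E-box CANNTG in 72.3%. Myh4 holds 1 MEF2 match, 1 CArG box and 3 E-boxes. Myh1 holds 1 MEF2 match and 0 E-boxes. Acta1 holds 1 CArG box and 2 E-boxes, and a TATAAA shortly before the start, as do Myh1 and Myh4. In Myh1 and Myh4 the letters TTTATA, which read TATAAA on the other strand, also lie inside the MEF2 match. Both share the run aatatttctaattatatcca downstream of that match, which is 20 bases long. Neither Myh7 window, nor those of Tnnc2, Ckm, Atp2a1 and Mylpf, holds the MEF2 consensus, the CArG box or TATAAA. These are letter matches in short windows and say nothing of binding.

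Acta1 and the fast-fibre genes were abundant in mice 1 to 6 and close to absent in mice 7 to 12, in both genotypes. In these bulk samples, more cells of a type and more RNA per cell cannot be told apart. Levels are given as normalised CPM, that is, CPM after TMM scaling between libraries. Acta1 had 24.3, 15.4 and 11.9 normalised CPM in ETAQ/+ mice 1, 5 and 6, and 131, 50.0 and 10.2 in WT mice 2, 3 and 4. In the second set, Acta1 had 0.579, 0.776 and 0.278 normalised CPM in ETAQ/+ mice 8, 9 and 11, and 0.322, 0.46 and 0.305 in WT mice 7, 10 and 12. The lowest of mice 1 to 6 was thus 13.2 times the highest of mice 7 to 12, while the genotypes overlapped in each set. Among the ETAQ/+ animals the female mouse 1 was with the high set and the male mouse 11 with the low set, and within each set the ETAQ/+ females had more Acta1 than the ETAQ/+ males.

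Ckm gave 9.98, 9.38 and 4.93 normalised CPM in ETAQ/+ mice 1, 5 and 6, and 95.8, 27.5 and 5.2 in WT mice 2, 3 and 4. It had 0 counts in ETAQ/+ mice 8, 9 and 11 and in WT mouse 7, with 0.035 and 0.0488 normalised CPM in WT mice 10 and 12. Its counts came to 4654 over mice 1 to 6 and, after rounding, to 3 over mice 7 to 12, a ratio of rates of 1463 (exact 95% counting interval 500.3 to 7097). The calcium pump Atp2a1 stood at 26.2, 15.0 and 10.5 normalised CPM in ETAQ/+ mice 1, 5 and 6, and at 201, 48.3 and 12.2 in WT mice 2, 3 and 4. In mice 7 to 12 it lay between 0.0348 and 0.21. Both genes therefore had the same order of mice at the top, mouse 2 and then mouse 3.

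The thin-filament and light-chain genes followed. Tnnt3 ranged from 6.59 through a median of 13.5 to 91.8 normalised CPM in mice 1 to 6 and from 0.0362 through 0.106 to 0.259 in mice 7 to 12. Tnni2 ranged from 2.19 (median 4.64) to 33.4 in mice 1 to 6 and from 0.0307 (median 0.0344) to 0.107 in mice 7 to 12. Tnnc2 ranged from 3.28 (median 6.5) to 40.5 in mice 1 to 6 and from 0 (median 0.0323) to 0.129 in mice 7 to 12. These 3 encode the parts of 1 complex, and none had overlapping sets. Mylpf, at 3.31 (median 6.32) to 49.0 normalised CPM in mice 1 to 6, had the highest median of the 7 fast genes in mice 7 to 12, at 0.244 (median 0.314) to 0.398.

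Myh4 spanned the widest range of all members. It had 32.3, 18.7 and 6.7 normalised CPM in ETAQ/+ mice 1, 5 and 6, and 375, 72.8 and 13.9 in WT mice 2, 3 and 4. In mice 7 to 12 it reached at most 0.0921, with 0 counts in ETAQ/+ mouse 8 and WT mouse 12. Myh1 had 8.74, 10.2 and 10.2 normalised CPM in ETAQ/+ mice 1, 5 and 6, and 18.9, 28.0 and 4.11 in WT mice 2, 3 and 4. It lay between 0.0678 and 0.278 in mice 7 to 12. Myh1 was highest in mouse 3, where Myh4 was highest in mouse 2.

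Myh7 did not share this pattern. It had 7.14, 5.15 and 6.1 normalised CPM in ETAQ/+ mice 1, 5 and 6, and 6.97, 14.2 and 5.74 in WT mice 2, 3 and 4. In the second set it had 5.91, 5.85 and 4.22 in ETAQ/+ mice 8, 9 and 11, and 7.13, 5.24 and 6.02 in WT mice 7, 10 and 12. The sets overlapped, and only mouse 3 stood clear of the others.

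**Figure D1:**
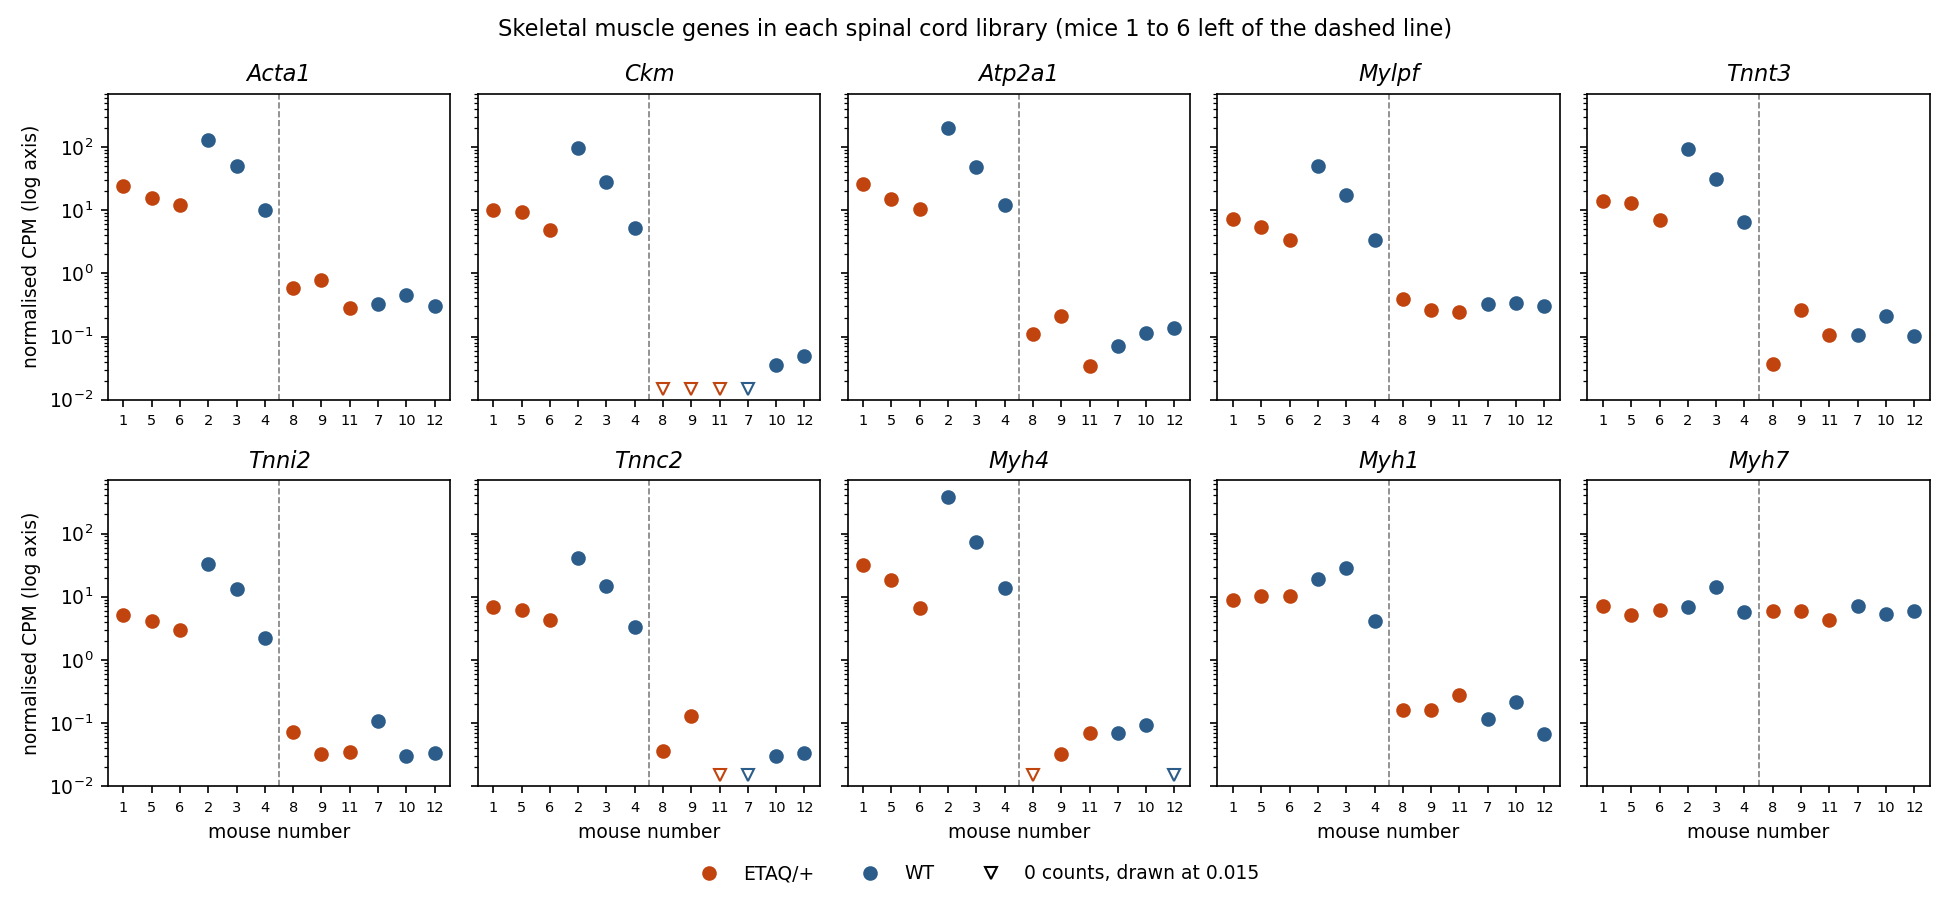
Normalised CPM (log axis) of the 10 genes in each library, 1 point a mouse, with mice 1 to 6 left of the dashed line and ETAQ/+ left of WT in each set; open triangles are 0 counts. Acta1 runs from 10.2 to 131 in mice 1 to 6 and from 0.278 to 0.776 in mice 7 to 12, whereas Myh7 runs from 5.15 to 14.2 and from 4.22 to 7.13.

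By the ratio of set means, the 9 members other than Myh7 were 45.8 times (Mylpf) to 1962 times (Myh4) as high in mice 1 to 6 as in mice 7 to 12. Without mouse 2, the highest library, these ratios were 23.4 to 815. For Myh7 the ratio was 1.32, and 1.34 without mouse 2. The values of these 9 genes did not overlap between the sets, mice 1 to 6 being higher, as was so for 4.99% of the 17189 genes tested. In the fit with sex and genotype as covariates, 9 of 10 members passed an adjusted p of 0.05 with mice 1 to 6 higher, against 4.93% of all genes tested, and 0 passed lower, against 2.96%. That count was 0 without mouse 1 and 1 without mouse 11, the 2 animals that separate set from sex among the ETAQ/+ mice. The log2 fold changes of the 9 were 5.61 to 12.04 with all mice, 4.37 to 10.73 without mouse 1 and 5.95 to 12.47 without mouse 11. The division of the mice was known from earlier results of these data, so these counts describe it and carry no test.

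The amount of muscle RNA differed widely among mice 1 to 6. The highest of mice 1 to 6 exceeded the lowest by 12.3 to 19.4 times for the 7 members that are not heavy chains, by 56.0 times for Myh4, by 6.82 times for Myh1 and by 2.75 times for Myh7. On the TPM scale, which corrects for gene length, the 10 members together reached 186, 137 and 91.8 TPM in ETAQ/+ mice 1, 5 and 6, and 1154, 405 and 78.9 TPM in WT mice 2, 3 and 4. They summed to between 3.91 and 7.1 TPM in mice 7 to 12. Mouse 4 was the lowest of its set and mouse 8 the highest of the other.

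Set against Acta1 in the same library, the members that are not heavy chains kept nearly fixed proportions. Across mice 1 to 6 the SD of the log2 ratio of TPM to Acta1 TPM was 0.16 for Mylpf, 0.16 for Tnni2, 0.19 for Tnnc2, 0.25 for Tnnt3, 0.33 for Ckm and 0.44 for Atp2a1, while log2 Acta1 itself had an SD of 1.39. Tnni2, for instance, was at 0.511, 0.656 and 0.599 times the Acta1 TPM in ETAQ/+ mice 1, 5 and 6, and at 0.619, 0.628 and 0.505 times in WT mice 2, 3 and 4. Atp2a1 departed in mouse 2, at 1.15 times Acta1 against 0.489 to 0.725 times in the other 5. Expected counts of Atp2a1 and Acta1 were 6302 and 4107 in mouse 2. In mice 1, 3, 4, 5 and 6 they were 886 and 821, 1273 and 1317, 502 and 421, 350.4 and 359, and 321 and 365. The size of this departure thus depends on the length correction of TPM, and by counts it was smaller. The heavy chains were the exception, with SDs of 0.75 for Myh4, 0.88 for Myh1 and 1.23 for Myh7. Myh7 was at 1.39 to 4.14 TPM in mice 1 to 6 and at 1.26 to 2.05 TPM in mice 7 to 12, where the fast-fibre genes were close to absent. How much of it came from muscle was not tested. Ratios and shares with Myh7, here and below, are therefore not proportions of slow fibres.

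The IIb and IIx heavy chains departed from actin in opposite directions. Myh4 was at 0.276, 0.252 and 0.117 times Acta1 in ETAQ/+ mice 1, 5 and 6, and at 0.593, 0.304 and 0.282 times in WT mice 2, 3 and 4. Myh1 was at 0.0743, 0.137 and 0.175 times Acta1 in ETAQ/+ mice 1, 5 and 6, and at 0.0312, 0.117 and 0.0832 times in WT mice 2, 3 and 4. Mouse 2 thus had the highest Myh4 and the lowest Myh1 for its actin, and mouse 6 the reverse.

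**Figure D2:**
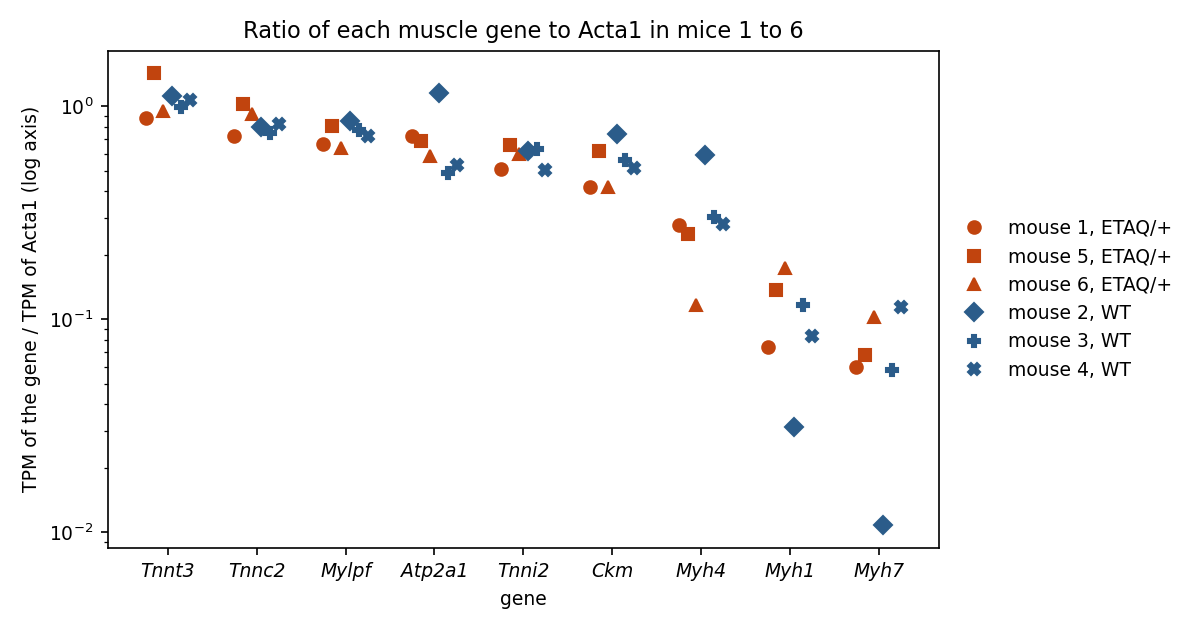
TPM of each gene divided by the TPM of Acta1 (log axis) in mice 1 to 6, 1 symbol a mouse. The points of Mylpf lie between 0.637 and 0.85 and those of Tnni2 between 0.505 and 0.656, whereas Myh7 spreads from 0.0108 in mouse 2 to 0.114 in mouse 4.

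The makeup of the summed member TPM differed between the sets. Myh7 made up 0.156 to 2.02% of it in mice 1 to 6 (median 1.07%) and 24.4 to 43.5% in mice 7 to 12 (median 32.1%). By counts, which are not corrected for length, Myh7 made up 0.668 to 8.98% in mice 1 to 6 and 75.9 to 86.4% in mice 7 to 12. Mylpf made up 11.6 to 13.7% of TPM in mice 1 to 6 (median 12.4%) and 23.0 to 49.0% in mice 7 to 12 (median 31.8%), but by counts 4.7 to 5.4% in mice 1 to 6 and 3.36 to 5.45% in mice 7 to 12. Acta1 made up a median of 17.6% of TPM in mice 1 to 6 and 11.4% in mice 7 to 12, and Ckm had 0 counts in 4 of the 6 libraries of mice 7 to 12. The shares of the second set rest on few reads, since Acta1 had 81 expected counts over all of mice 7 to 12 and Tnni2 had 9.

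Among the 3 heavy chain genes, Myh4 led in 5 of mice 1 to 6 and Myh7 in all of mice 7 to 12. Myh2, a further fast heavy chain that is not a member, had 1264 counts over mice 1 to 6 and 20.4 over mice 7 to 12. With Myh2 in the sum, the median Myh4 share of mice 1 to 6 was 53.1% in place of 61.0%. The shares below leave Myh2 out and are not the full makeup of heavy chains. Myh4 took 67.1% (exact 95% counting interval 64.8 to 69.4), 55.0% (51.4 to 58.5) and 29.2% (25.9 to 32.7) of the Myh4, Myh1 and Myh7 counts in ETAQ/+ mice 1, 5 and 6. In WT mice 2, 3 and 4 it took 93.6% (93.1 to 94.0), 63.3% (61.6 to 65.0) and 58.6% (55.4 to 61.7). The intervals of several mice of 1 genotype do not meet, so that the share differed between animals by more than counting error, and the genotypes overlapped. Myh1 took the largest share in mouse 6, at 44.3% (40.6 to 48.1). Myh7 took 14.8%, 15.1% and 26.5% in ETAQ/+ mice 1, 5 and 6, and 1.74%, 12.3% and 24.1% in WT mice 2, 3 and 4. In mice 7 to 12 it took 92.4 to 98.9%, and the 0 counts of Myh4 in mice 8 and 12 gave exact intervals of 0 to 2.18% and 0 to 2.03%.

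The ratio of IIb to IIx heavy chain counts, Myh4 over Myh1, was 3.7 (95% counting interval 3.26 to 4.23), 1.84 (1.56 to 2.16) and 0.659 (0.55 to 0.789) in ETAQ/+ mice 1, 5 and 6. It was 19.8 (18.3 to 21.6), 2.6 (2.38 to 2.83) and 3.39 (2.85 to 4.05) in WT mice 2, 3 and 4. The intervals of mice 1 and 4 overlapped and those of the other 4 met no other, mouse 2 being highest and mouse 6 lowest. The 7 fast genes summed to 64.6, 73.5 and 38.6 times the Myh7 TPM in ETAQ/+ mice 1, 5 and 6, and to 479, 69.9 and 35.3 times in WT mice 2, 3 and 4. In mice 7 to 12 that ratio lay between 1.01 and 2.62.

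**Figure D3:**
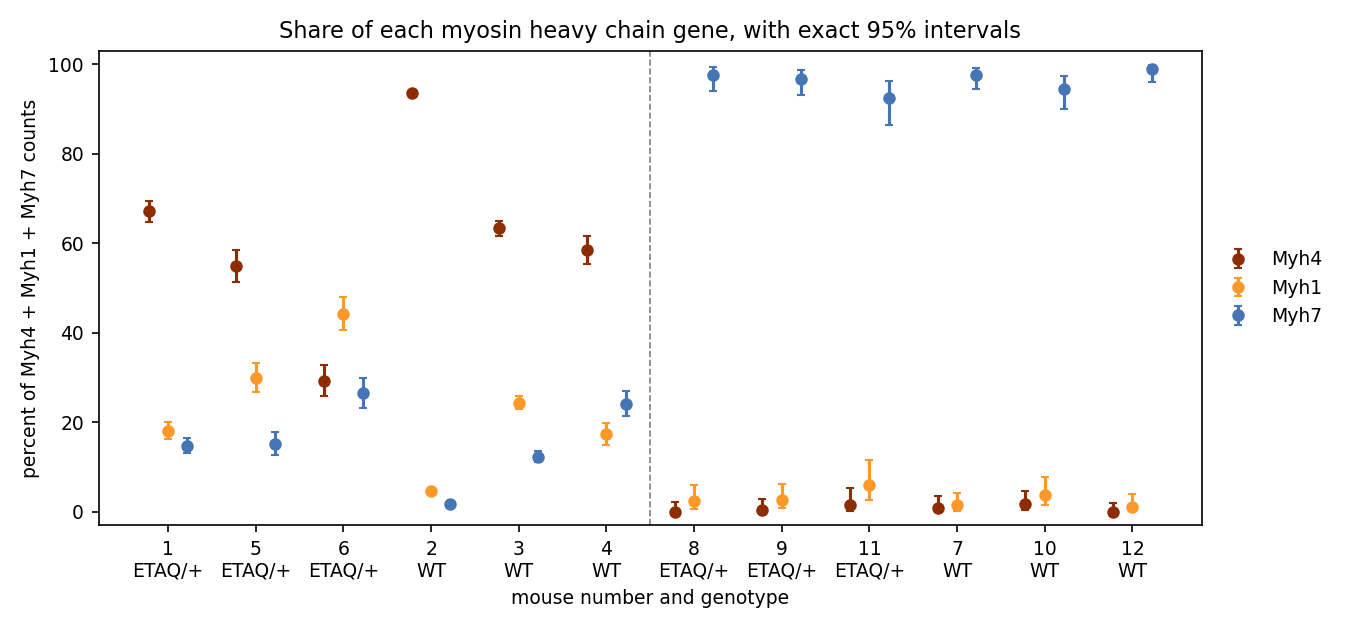
Percent of the summed Myh4, Myh1 and Myh7 counts taken by each gene in each mouse, ETAQ/+ left of WT in each set, with exact 95% binomial intervals. Myh4 falls between 29.2 and 93.6% left of the dashed line, and Myh7 between 92.4 and 98.9% right of it.

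Several members share sequence with other genes, which the authors' counting could divide. In GENCODE M21 transcripts, 35% of the 75-base stretches of Tnnc2 also occur, on the opposite strand, in Ube2c, which overlaps 74% of its exon bases. Ube2c, a ubiquitin-conjugating enzyme of dividing cells, was itself at 4.01 to 7.54 TPM in mice 1 to 6, and 1.1 to 2.14 TPM in mice 7 to 12. Atp2a1 shares 15.8% with Rabep2 and Ckm 8.26% with A930016O22Rik, again opposite strands of overlapping exons. Rabep2 was at 11.7 to 14.2 TPM in mice 1 to 6, and 11.4 to 14.2 TPM in mice 7 to 12. Between heavy chains, Myh1 shares 11.9% of its stretches with Myh2, Myh4 4.9% with Myh1, and Myh7 10.6% with Myh6. Mylpf, Tnnt3 and Tnni2 share none and Acta1 0.394%.

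Genotype was the comparison the study was designed for. Acta1 averaged 8.87 ± 9.97 normalised CPM in ETAQ/+ mice and 32.0 ± 52.1 in WT mice (SD, n = 6 each). Myh4 averaged 9.64 ± 13.3 normalised CPM in ETAQ/+ mice and 77.0 ± 149 in WT mice. For Ckm the means were 4.05 ± 4.76 in ETAQ/+ mice and 21.4 ± 38.0 in WT mice. Myh7, whose sets overlapped, averaged 5.73 ± 0.977 normalised CPM in ETAQ/+ mice and 7.54 ± 3.33 in WT mice, and the WT spread came from mouse 3. For no member did the genotypes separate, which 2.02% of genes tested did in either direction.

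With sex as a covariate, 0 of the 10 members passed edgeR's quasi-likelihood test at an adjusted p of 0.05, against 1.92% of all genes tested (330 of 17189). None had an unadjusted p under 0.05 either, whereas 1873 of the 17189 genes tested did. The adjusted p of the members ran from 0.664 (Myh7) to 0.982 (Acta1). The log2 fold changes were negative for 9 members, from -1.16 ± 2.30 (SE) for Myh4 to 0.41 ± 1.40 for Myh1, with a median of -0.48 beside 0.00 over all genes tested. Standard errors of 1.40 to 2.30 for the 9 members other than Myh7 mean that differences of several-fold were not detectable. The direction was not stable. Without mouse 2 the fold change was positive for 9 members (0.68 for Acta1) and negative for Myh7 (-0.40), and with DESeq2 on all 12 mice it was also positive for these 9. Acta1, Tnnt3, Tnnc2 and Atp2a1 also turned positive without mouse 5, 6 or 11, Acta1 to 0.40, 0.47 and 0.56.

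Taking the mouse set as a further covariate narrowed the errors. All 10 fold changes were then negative, from -3.59 ± 1.25 for Myh4 to -0.38 ± 0.23 for Myh7, with a median of -1.96. Of the members, 4 had an unadjusted p under 0.05, namely Myh4, Atp2a1, Ckm and Tnni2, as did 2313 of the 17189 genes tested. Members vary together across the same mice, so these 4 are not separate results. After adjustment 0 passed, with adjusted p from 0.244 to 0.755 and 2.71% of all genes called in that fit. Without mouse 2 the same fit gave -1.73 for Myh4, -0.77 for Acta1 and -0.43 for Myh7, all 10 again negative, with adjusted p from 0.394 to 0.836.

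Within mice 1 to 6 alone, read from a fit with a genotype effect for each set, the fold changes were negative for all 10 members, from -3.62 ± 1.34 for Myh4 to -0.68 ± 0.33 for Myh7. Their adjusted p was 0.487 to 0.835, with 0 called and 0.803% of all genes called. Even there the genotypes overlapped in every member, since WT mouse 4 lay below ETAQ/+ mouse 1, whereas 8.05% of all genes had ETAQ/+ wholly below WT. Within mice 7 to 12 the fold changes ran from -2.53 to 1.35 on very few counts, with adjusted p from 0.953 to 0.999, 0 called and 0.937% of all genes called. The difference in genotype effect between the sets had an adjusted p of 0.995 to 0.999. By sex, the fold changes were positive for all 10 members among females (0.04 to 7.54, median 4.97; adjusted p 0.613 to 0.988) and negative for all 10 among males (-4.23 to -0.79, median -2.78; adjusted p 0.483 to 0.877). For the 9 members other than Myh7 the female values rest largely on mouse 1, the only female of mice 1 to 6. Myh4 was at 32.3 normalised CPM in that mouse. In ETAQ/+ females 8 and 9 it was at 0 and 0.0323, and in WT females 7, 10 and 12 at 0.0709, 0.0921 and 0. Of the males, only ETAQ/+ mouse 11 was from mice 7 to 12. Between the sexes the difference in genotype effect had an adjusted p of 0.901 for every member. Unadjusted p was under 0.05 for 8 members and for 852 of the 17189 genes tested. Sex and set cannot be told apart among the WT mice.

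**Figure D4:**
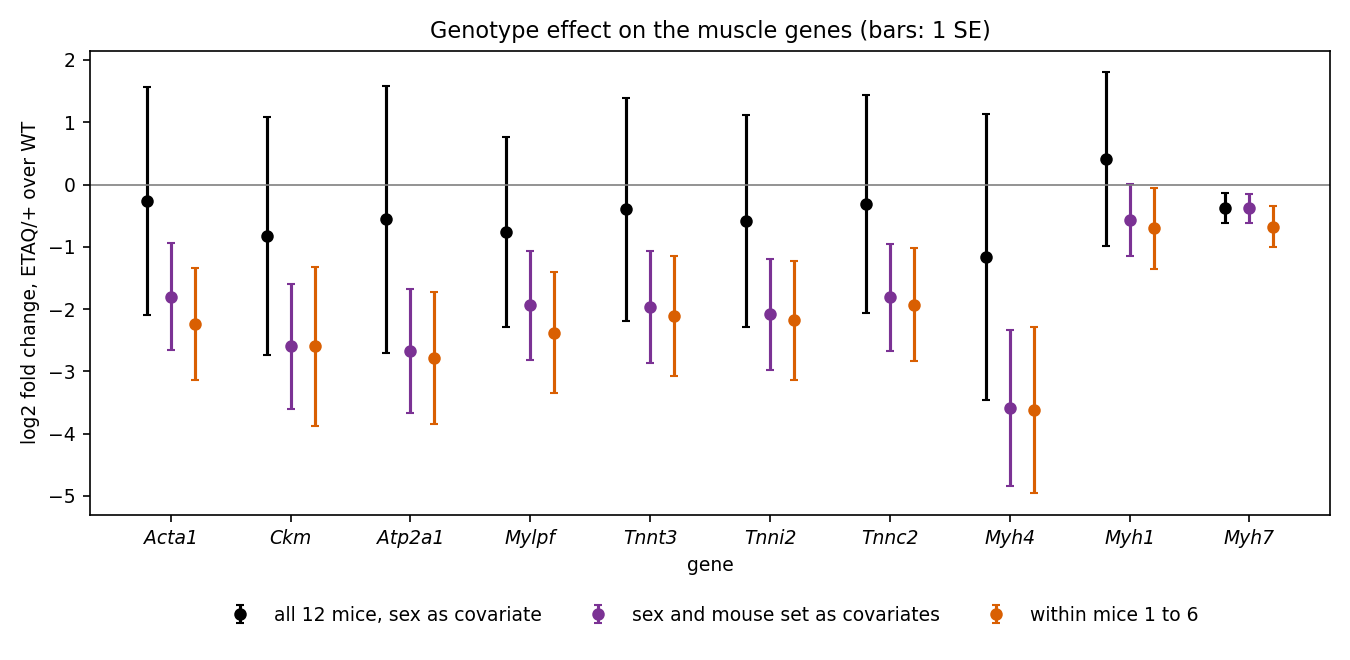
Log2 fold change, ETAQ/+ over WT, of each gene with 1 standard error on either side, in the fit with sex as covariate (black), with sex and mouse set as covariates (purple) and within mice 1 to 6 (orange). Myh4 is at -1.16, -3.59 and -3.62 in these 3 fits and Myh7 at -0.37, -0.38 and -0.68, and no point passed the test.

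The rest of the sarcomere was read from 6 further lists of muscle genes, of which 62 were in the files and 55 were tested. Of these, 19 passed with mice 1 to 6 higher and 0 lower, 0 passed in either direction by genotype, and 1 was lower in ETAQ/+ mice with set as covariate. Over all genes tested, 4.93% passed higher and 2.96% lower between the sets and 1.92% by genotype, and the list counts here and below are to be read beside these shares. These and the following counts between the sets come from the fit in which the calls of the members rested on mice 1 and 11. That gene was Pygm (muscle glycogen phosphorylase, also present in astrocytes), at -0.21 ± 0.04 with an adjusted p of 0.00706 by edgeR, against -0.21 ± 0.07 and 0.283 with sex alone. Among other sarcomere and Z-disc genes 8 of 15 passed with mice 1 to 6 higher. In that list Tpm2 (beta-tropomyosin) was at 13.2 to 56.0 TPM in mice 1 to 6, and 8.13 to 10.7 TPM in mice 7 to 12, and Ldb3 (a Z-disc protein) had medians of 7.76 TPM in mice 1 to 6 and 5.68 TPM in mice 7 to 12.

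Of the other fast-fibre genes 3 of 10 passed, and of the excitation-contraction genes 2 of 11. By normalised CPM alone, the sets did not overlap, mice 1 to 6 being higher, for 9 of 11 other fast-fibre genes in the files. The same was so for 6 of 13 excitation-contraction genes and 14 of 16 sarcomere genes, beside 4.99% of all genes tested. Unlike that share, the list counts include genes too low in count to be tested. On the TPM scale some genes of these lists overlapped, as Eno3 did at 8.31 to 33.8 TPM in mice 1 to 6 and 6.52 to 10.5 TPM in mice 7 to 12. The most abundant fast-fibre and excitation-contraction genes of these lists were high in both sets. Pfkm (phosphofructokinase) was at 216 to 249 TPM in mice 1 to 6, and 224 to 236 TPM in mice 7 to 12, and Pvalb (parvalbumin) at 131 to 235 and at 108 to 130.0 TPM. Jph1 (junctophilin) was at 5.18 to 6.38 TPM in mice 1 to 6, and 5.22 to 5.74 TPM in mice 7 to 12. Chosen after its values were seen, Myl1 (the fast essential light chain) was at 10.4 to 165 TPM in mice 1 to 6, and 0.14 to 0.96 TPM in mice 7 to 12, much like its partner Mylpf. Ampd1 (muscle AMP deaminase) and Lmod2 (leiomodin) had 227 and 61.0 counts over mice 1 to 6 and 0 over mice 7 to 12.

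Several slow-fibre genes, though not Tnni1, Casq2 or Myl6b, had their highest level in mouse 3. Of 7 tested, 2 passed with mice 1 to 6 higher, while Myl6b, at 27.1 to 30.7 TPM and 26.3 to 30.5 TPM in the 2 sets, did not. The following were picked after their values were seen. Myl2 (slow regulatory light chain) was at 4.03, 2.08 and 3.32 TPM in ETAQ/+ mice 1, 5 and 6, and at 0.98, 13.1 and 2.07 TPM in WT mice 2, 3 and 4. Myl3 was at 3.28 TPM, Tnnt1 (slow troponin T) at 5.46 TPM and Mb (myoglobin, the oxygen store of oxidative fibres) at 24.2 TPM in mouse 3, each its highest. In mouse 2 the same 3 were at 0.46, 2.17 and 8.95 TPM. Mb, which is from the muscle metabolism list, was thereby second highest in mouse 2, and Tnnt1 was lowest of mice 1 to 6 in mouse 5, at 1.55 TPM. Mouse 2 thus combined the highest Myh4 with the lowest Myl2 and Myl3 of mice 1 to 6, and mouse 3 combined the highest Myh7, Myh1, Myl2 and Mb.

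Genes of developing, denervated or regenerating muscle were mostly at low counts. Of the tested genes, 0 of 3 developmental myosins, 0 of 8 denervation and junction genes and 0 of 1 muscle stem cell genes passed between the sets or by genotype. Fbxo32 (atrogin, a ubiquitin ligase of wasting muscle) was at 17.1 to 20.7 TPM in mice 1 to 6, and 17.3 to 19.8 TPM in mice 7 to 12. Myh8 (the perinatal heavy chain) was at 0.28 to 0.54 TPM and at 0.28 to 0.45 TPM. The receptor subunit Chrnd had 0 counts in all 12 mice. Chosen after their values were seen, Trim63 (MuRF, another ubiquitin ligase of wasting muscle) had 74.0 counts over mice 1 to 6 and 6 over mice 7 to 12, and the myogenic factor Myf6 had 25.0 and 1. Of the cardiac genes 0 of 5 passed between the sets, and Myh6 (a heavy chain of heart muscle) was higher in ETAQ/+ mice, by 0.65 ± 0.15 (log2, edgeR adjusted p = 0.0349). Myh6 shares 13.7% of its 75-base stretches with Myh7, whose own fold change was -0.37 ± 0.24.

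The genes outside the lists whose levels ran most like the members over mice 1 to 6 were Klhl31, Cmya5, Mylk4, 1110002E22Rik, Tmod4, Apobec2, Hfe2 and Mylk2. Likeness was the SD, over these 6 mice, of the gene's log2 level minus the members' mean log2 level, and it was 0.38 for Klhl31 and 0.66 for Mylk2 against a median of 1.34 over 14836 genes. By the same measure Acta1 scored 0.13, Tnnc2 0.14, Myh4 0.80, Myh1 0.82 and Myh7 1.15, but each member is itself part of that mean. The members' mean had an SD of 1.33, which is also the score of a gene at a constant level. Cmya5 was at 3.48 to 21.2 normalised CPM in mice 1 to 6, and 1.86 to 2.75 in mice 7 to 12. Mylk2 was at 0.0654 to 5.47 in mice 1 to 6, and 0 to 0.0716 in mice 7 to 12.

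Markers of several other tissues around the cord were also higher in mice 1 to 6, and their part in the muscle result was not tested. All 7 red cell genes passed, with sums of 1917 to 3552 normalised CPM in mice 1 to 6 and 143 to 269.8 in mice 7 to 12. All 9 marrow granulocyte genes passed, with sums of 96.3 to 179 and 0.737 to 4.37. Of the Schwann cell and root genes 6 of 7 passed. Of the bone and cartilage genes 5 of 9 passed, with sums of 168 to 344 and 93.9 to 105, and of the smooth muscle genes, which include Des of all muscle types, 4 of 6, with sums of 48.5 to 76.8 and 29.9 to 35.8. The cartilage genes did not share the rise. Col2a1, Acan and Matn1 had 809, 5640 and 27.0 counts over mice 1 to 6, and 789, 5371 and 42.0 over mice 7 to 12. Both tested fat genes passed, with sums of 0.462 to 10.9 and 0.0323 to 0.153, and Cidec and Lep had 0 counts in mice 7 to 12. Of the sensory ganglion genes 0 of 2 passed between the sets and both were higher in ETAQ/+ mice, P2rx3 (a receptor of pain neurons) by 2.87 ± 0.13 and Avil by 2.35 ± 0.32 (log2, edgeR adjusted p = 6.73e-09 and 0.000934). The other genes of that list, Scn10a, Scn11a, Trpv1, Mrgprd and Prdm12, were not tested and did not share this pattern. Each was highest in ETAQ/+ mouse 1, with Scn10a at 0.74 TPM there and at most 0.02 TPM in any other mouse.

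Within mice 1 to 6 these tissues did not rank the animals as muscle did. The 7 fast-fibre genes summed to 100.1, 73.0 and 44.9 normalised CPM in ETAQ/+ mice 1, 5 and 6, and to 809, 225 and 45.6 in WT mice 2, 3 and 4, a spread of 18.0 times. Red cell genes spread 1.85 times, with mouse 6 highest and mouse 3 lowest, and marrow granulocyte genes 1.86 times, with mouse 1 highest. Bone and cartilage genes spread 2.05 times, with mouse 6 highest. Fat genes spread 23.6 times, with mouse 1 highest, where Ucp1 (the uncoupling protein of brown fat) alone was at 9.56 TPM. Mouse 2, with the most fast-fibre RNA, led none of these 4 lists but led the sum of the smooth muscle genes, which spread 1.58 times. In that list Des, of all muscle types, was highest in mouse 2, at 7.41 TPM against 2.43 TPM in mouse 6. Acta2, Myh11, Tagln, Cnn1, Actg2 and Smtn were each highest in mouse 6.

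**Figure D5:**
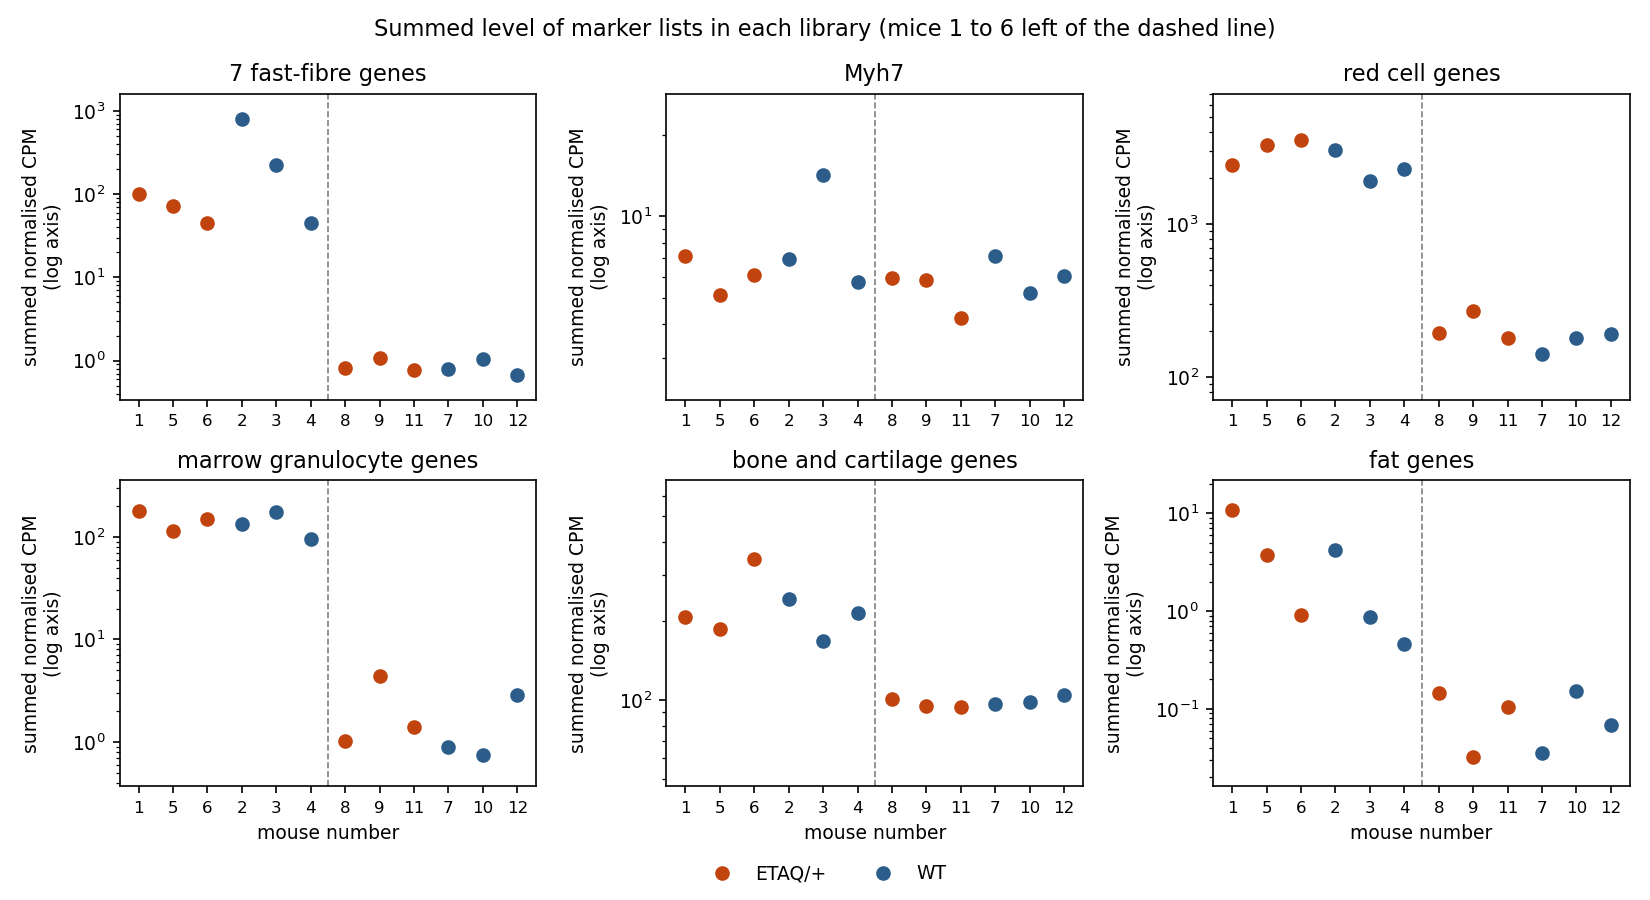
Summed normalised CPM (log axes, each panel with its own range) of the fast-fibre genes, Myh7 and 4 marker lists in each mouse, ETAQ/+ left of WT in each set. The fast-fibre sum spans 44.9 to 809 left of the dashed line while red cell genes span 1917 to 3552, and both lie far lower on the right, where Myh7 does not.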

How the data were processed

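RNA from whole spinal cord of 12 mice was sequenced as polyA-selected libraries with 75 bp paired reads, per the labels' protocols, which name 2 KAPA library kits without saying which library used which. Alignment and counting tools named by the submitters' processing notes are Bowtie2 2.2.0 and RSEM 1.2.12; the second divides reads between similar transcripts by an estimate. Their genome build, annotation and strand setting are not given in the sources used here. Per the file headers, each deposited table gives an expected count per gene, not normalised, and 15.4% of these were not whole numbers. Beside it stand TPM values, which the authors' software corrected for gene length and depth.

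The members and lists were chosen with earlier results of these data known. Named were all 10 members, from each list the 2 genes of highest mean TPM and up to 2 with the smallest p among genotype calls, and 8 genes outside the lists that ran most like the members. Expected counts were rounded and tested in R 4.3.3 with edgeR 4.0.16 (filterByExpr on 4 genotype-by-sex groups, 17189 genes, TMM factors 0.975 to 1.020, robust quasi-likelihood test, Benjamini-Hochberg adjustment over all genes, threshold 0.05), and an SE is the fold change divided by the root of its F. The scripts were tested on simulated data. The sets were compared with sex and genotype as covariates. Intervals are exact binomial at 95%. Shared sequence was counted as 75-base stretches in GENCODE M21 transcripts, which may not be the authors' annotation; promoters came from RefSeq (GRCm38.p6). Alternatives were DESeq2 1.42.0, limma 3.58.1 on log2 (TPM + 0.1) and log2 (TPM + 1), other size factors, no filter on low counts, no sex covariate, the set as a covariate, each set alone and each mouse left out. Mymx and Mymk matched no gene of the tables.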

Additional observations from a re-analysis of the deposited data

Results flagged for a closer look

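Within the genotypes and the mouse sets, each a group of 6 libraries, 17 of 40 group-by-gene checks had a library far from the others. The check set the gap to the next library against the range, on normalised CPM and not its log. A chance rate of about 1 in 20 for a single group would hold for normally distributed values. Values of mice 1 to 6 were skewed and each genotype mixes both sets, so that rate does not apply here. The checks are also not independent, since the genes and the groups share mice, so an excess was not measured. Of these 17, 14 were WT mouse 2. In mouse 2, Acta1 at 131 and Tnni2 at 33.4 normalised CPM stood apart among mice 1 to 6. Among both mice 1 to 6 and the WT mice, mouse 2 stood apart for Ckm at 95.8, Mylpf at 49.0, Tnnt3 at 91.8, Tnnc2 at 40.5, Myh4 at 375 and Atp2a1 at 201 normalised CPM. Myh7 at 14.2 normalised CPM in WT mouse 3 stood apart in the same 2 groups. Tnnc2 at 0.129 normalised CPM in ETAQ/+ mouse 9 stood apart among mice 7 to 12, on 4 counts. The part of mouse 2 in the genotype values is given with the genotype comparison.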

How the results depend on the processing

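No paired analysis was possible because each mouse has its own number and the genotypes share none. By genotype 0 members were called under every alternative run, and 330 genes. DESeq2 called 505 genes, limma 152 (TPM + 0.1) and 151 (TPM + 1), mice 1 to 6 alone 95 and mice 7 to 12 alone 118, where only 2 members could be tested; leaving out 1 mouse gave 236 to 315. Uncalled genotype fold changes changed sign. With DESeq2 they were 0.86 (Acta1), 1.92 (Ckm), 0.01 (Mylpf), 1.14 (Tnnt3), 0.97 (Tnni2), 1.93 (Tnnc2), 1.66 (Myh4) and 1.43 (Atp2a1), and in mice 7 to 12 alone Acta1 was at 0.89. Myh1 was at -0.79 without the sex covariate, -0.00 and -0.17 with limma (TPM + 0.1 and + 1), -0.57 with the set as a covariate, -0.47 with that and without mouse 2, and -0.72 in mice 1 to 6 alone. Leaving out 1 mouse at a time, the fold changes ranged from -2.41 to 0.68 (Acta1), -3.20 to 0.58 (Ckm), -2.59 to 0.29 (Mylpf), -2.59 to 0.75 (Tnnt3), -2.69 to 0.48 (Tnni2), -2.38 to 0.82 (Tnnc2), -1.19 to 1.03 (Myh1), -4.23 to 0.55 (Myh4) and -3.28 to 0.78 (Atp2a1), and stayed negative for Myh7 (-0.47 to -0.11). The cause was not tested. Between the sets 1356 genes were called (848 higher in mice 1 to 6, 508 lower), against 3533 without the sex covariate (1873 and 1660), 600 and 574 with limma, and 163 to 1563 leaving out 1 mouse, for which the members called were 0 to 9 (0 without mouse 1, 1 without mouse 11). The median share of Acta1 among the members was 15.6% by expected counts and 17.6% by TPM in mice 1 to 6, and 6.04% and 11.4% in mice 7 to 12, since counts are not corrected for gene length. The set as a covariate without mouse 2 was chosen after seeing the data. Depth limits mice 7 to 12, where Ckm, Tnnc2 and Myh4 had 3, 7 and 8 counts in all.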
